A study of Mus musculus with 9 samples.

Results

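Genes of oxidative phosphorylation, encoded in the nucleus and in mitochondrial DNA, were followed across 9 poly(A) RNA libraries of the mouse mammary adenocarcinoma line D2.0R (also written D2.OR). Members were all rows of the count table whose symbol begins Nduf followed by a, b, c, s or v, is Sdha, Sdhb, Sdhc or Sdhd, begins Uqcr, Atp5 or Cox followed by 4, 5, 6, 7 or 8, or is a protein-coding gene of mitochondrial DNA, without rows marked as pseudogenes by a -ps suffix. This gave 111 of 55487 genes, 98 nuclear and 13 mitochondrial. Of these, 99 (86 nuclear and all 13 mitochondrial) had enough counts in every library to be measured. The annotation used here (GENCODE M21) types 4 members as processed pseudogenes although their symbols carry no -ps suffix: Ndufb4c, which was measured, and Ndufa11b, Ndufs6b and Cox6c2, which were not. Per the labels' protocols, all cells carried the dye CellTrace Far Red (CTFR), were kept for 1 week in DMEM with 2% serum in place of the 10% used for maintenance, and were sorted by flow cytometry into dye-retaining (CTFR+) and dye-poor (CTFR-) cells. The labels list CTFR-positive, bulk and CTFR-negative samples, 3 kinds in all, but describe every sample in the same words, so 0 of the 9 libraries could be tied to a kind. Libraries are therefore named by the number in their title, no groups were compared, and values are given library by library. D2.0R is an established line, and the labels name no other cells in the cultures.

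Oxidative phosphorylation is carried out by 5 protein complexes of the inner mitochondrial membrane. Complexes I (NADH dehydrogenase) and II (succinate dehydrogenase) pass electrons to ubiquinone, complex III (cytochrome bc1) passes them on to cytochrome c, and complex IV (cytochrome c oxidase) passes them to oxygen. Complexes I, III and IV pump protons, and complex V (ATP synthase) uses the resulting gradient to make ATP. All subunits of complex II come from nuclear genes, whereas the other complexes combine subunits from both genomes. Mitochondrial genes are copied by their own RNA polymerase as long transcripts from both strands that are then cut into individual RNAs, while each nuclear subunit gene is transcribed separately.

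The nuclear genes varied little between libraries and the mitochondrial genes varied more. The nuclear score, the median over the 86 measured genes of log2 CPM (counts scaled to a common library size) minus each gene's own median, was -0.05, -0.05, 0, 0.02, -0.07, 0.03, 0.04, -0.03 and 0.02 in libraries 1 to 9, a spread of 0.11 or 1.08-fold. The mitochondrial score over 13 genes was 0.16, -0.14, -0.33, 0.32, -0.08, 0, 0.12, -0.34 and 0.39, a spread of 0.74 or 1.67-fold. The libraries with the highest mitochondrial levels were 9 and 4 and those with the lowest were 8 and 3, and these 4 libraries differed little in the nuclear score. The difference between both scores ran from -0.33 in library 3 to 0.37 in library 9, a spread of 0.71 or 1.63-fold. In bulk RNA, fewer cells of a kind and less RNA per cell cannot be told apart, here or for any gene below. The shallowest library, 9, had the highest mitochondrial score, and the part of depth in it was not tested.

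**Figure D1:**
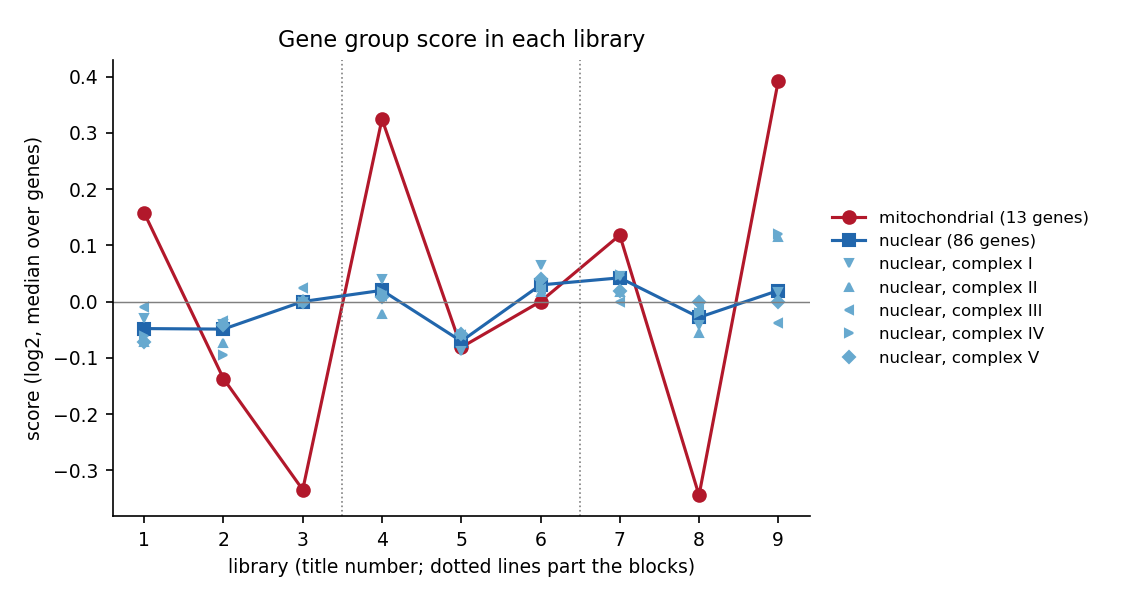
Score of the nuclear and the mitochondrial genes in each library, on a log2 scale, by title number; a score is the median over genes of log2 CPM minus the gene's median over libraries. The nuclear points lie between -0.07 and 0.04, and the mitochondrial points between -0.34 in library 8 and 0.39 in library 9.

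As a share of all counts, the 13 mitochondrial genes together held 1.79, 1.37, 1.21, 1.93, 1.56, 1.51, 1.59, 1.296 and 1.83% in libraries 1 to 9. The lowest share, in library 3, had a Wilson 95% interval of 1.21 to 1.22%, and the highest, in library 4, of 1.92 to 1.93%, for counting error only. The nuclear members together held 0.636 to 0.712%. Their combined counts were thus smaller than those of the mitochondrial genes in all 9 libraries, by a factor of 1.83 in library 3 to 2.87 in library 4. Per kilobase of annotated exon, the median mitochondrial gene stood at 943 CPM (39.8 for mt-Nd3 to 3165 for mt-Co1) and the median measured nuclear gene at 36.1 CPM (2.77 to 258). Exon lengths join all annotated transcripts, some of which keep introns, so a level per kilobase can be too low for a nuclear gene with long minor transcripts.

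Each gene was tested for variation beyond counting noise with a chi-square test of its 9 counts, adjusted over all 12813 measured genes, and called variable where it passed and its highest and lowest libraries differed by at least 2-fold. Of the nuclear members 1 of 86 was variable, the complex I assembly factor Ndufaf4, and 0 of the other 78 outside the assembly factors were, which are 77 protein-coding subunit genes and the pseudogene Ndufb4c. At an adjusted p under 0.05 without the fold, 80 of the 86 nuclear members passed. Of the mitochondrial members 5 of 13 were variable: mt-Nd1, mt-Nd2, mt-Nd3, mt-Co3 and mt-Atp6. Over all measured genes 28.0% were variable and 94.1% passed without the fold, so passing the test alone says little at this depth. The test does not separate differences between cells from differences in sorting or library preparation.

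Most nuclear members had a smaller spread than the median gene. Their median range over the 9 libraries was 0.41 on the log2 scale, against 0.69 for all measured genes and 0.81 for the mitochondrial members. A range under the median of all genes was found for 78 of 86 nuclear and 2 of 13 mitochondrial members. Since low genes spread more, the nuclear members were also set against genes in a wide interval of level, without matching level inside it. The mitochondrial members were not compared in this way. Between 10 and 1000 CPM, 15.9% of 8974 genes were variable with a median range of 0.56, and among the 80 nuclear members in that interval 1 was variable and the median range was 0.41. These are descriptions of the listed genes with no test of the list.

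**Figure D2:**
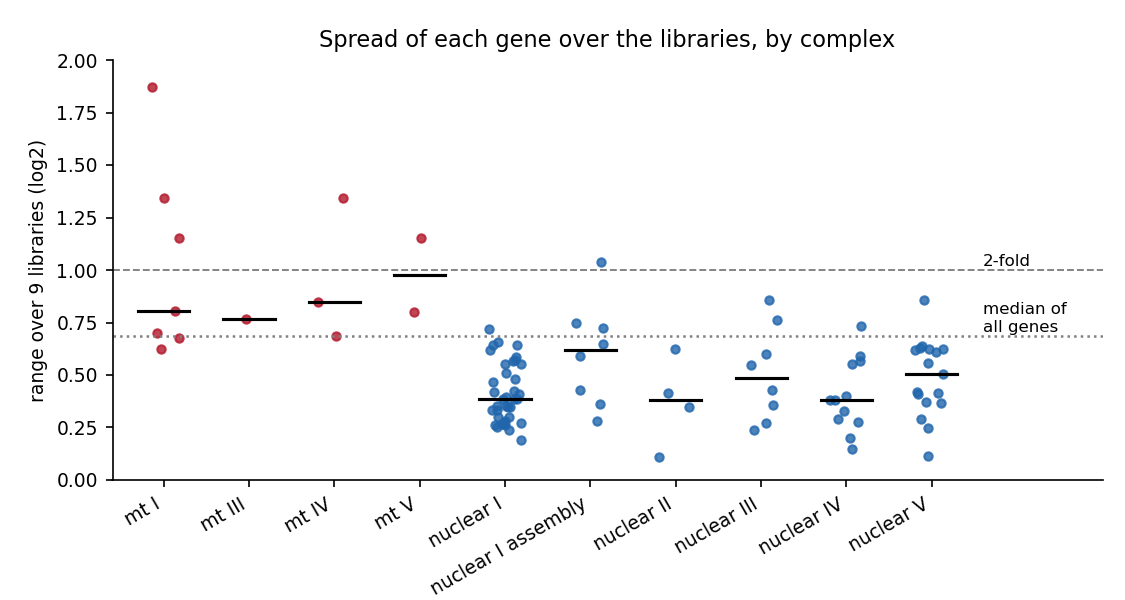
Range of log2 CPM over the 9 libraries for each measured gene (points), by genome and complex, with the median of each class as a bar and the median of all 12813 measured genes (0.69) and 2-fold as horizontal lines. Nuclear complex medians lie between 0.38 and 0.62, mitochondrial ones between 0.77 and 0.98, and Ndufaf4 is the nuclear point above 2-fold.

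The nuclear complexes resembled one another in spread. Median ranges were 0.39 for 37 complex I members (also 0.39 for the 36 without the pseudogene Ndufb4c), 0.38 for 4 of complex II, 0.49 for 8 of complex III, 0.38 for 12 of complex IV and 0.50 for 17 of complex V, against 0.62 for the 8 complex I assembly factors, which are less abundant. The scores of the complexes spanned 0.15, 0.19, 0.08, 0.21 and 0.11 for complexes I to V and 0.21 for the assembly factors. The nuclear score of no complex differed by more than 1.16-fold between any pair of libraries. The mitochondrial scores of complexes I, III, IV and V spanned 1.67-fold, 1.70-fold, 1.80-fold and 1.93-fold. Among mitochondrial genes the median ranges were 0.81 for the 7 complex I genes, 0.77 for mt-Cytb, 0.85 for the 3 of complex IV and 0.98 for the 2 of complex V.

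**Figure D3:**
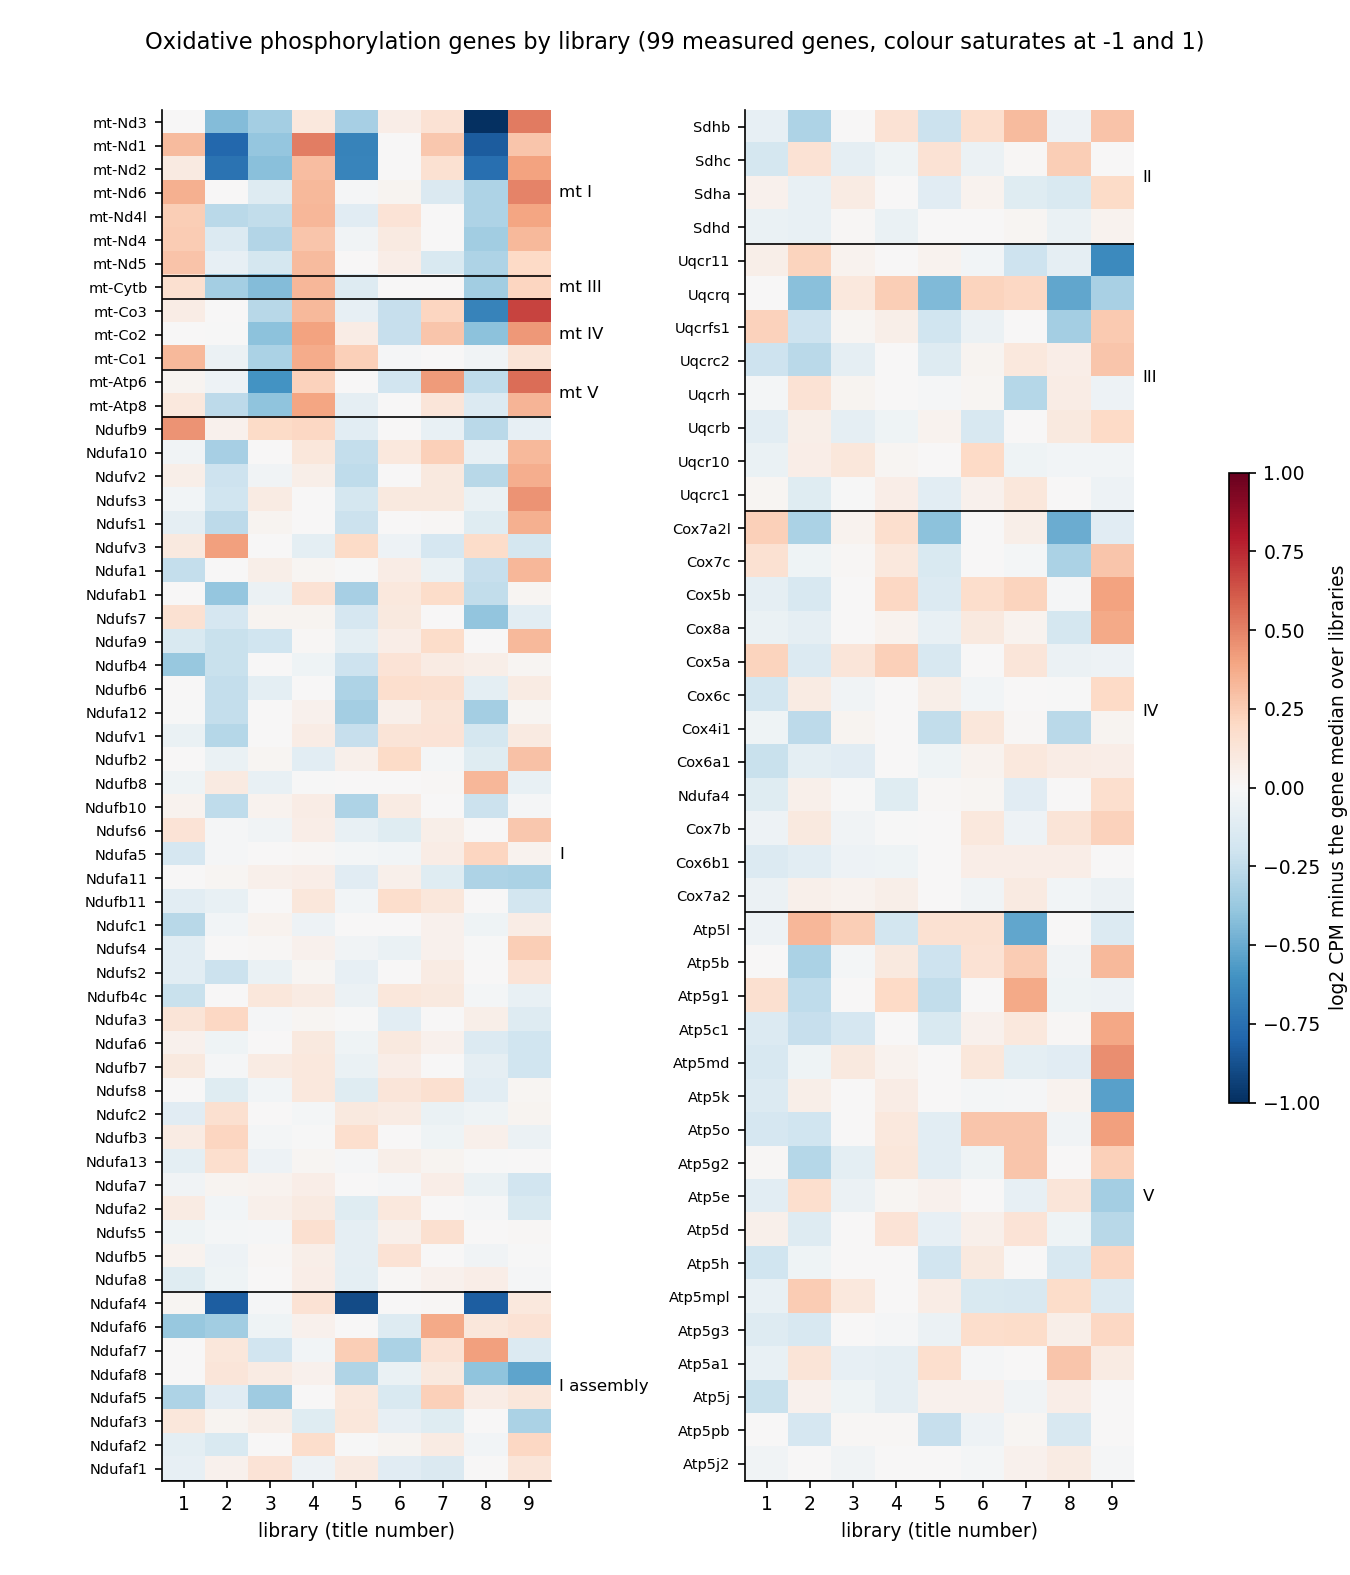
Log2 CPM minus the gene's median over libraries for the 99 measured members (rows, grouped by genome and complex, widest range first) in the 9 libraries (columns, by title number). The mitochondrial rows are mostly red in libraries 4 and 9 and blue in libraries 3 and 8, and Ndufaf4, mt-Nd1 and mt-Nd2 are dark blue in libraries 2, 5 and 8.

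Complex I holds 7 mitochondrially encoded subunits, all of them in the membrane arm. mt-Nd1, which forms part of the ubiquinone-binding site (chrM:2751-3707, plus strand), stood at 1719, 801, 1057, 1972, 870, 1381, 1667, 777 and 1674 CPM in libraries 1 to 9. Libraries 2, 5 and 8 lay below all others, and the highest and lowest differed 2.54-fold (95% interval of the ratio from counting alone 2.504 to 2.58). Its neighbour mt-Nd2 (chrM:3914-4951), a proton-pumping subunit, stood at 1320, 744, 925, 1538, 784, 1239, 1379, 736 and 1635 CPM. Here too libraries 2, 5 and 8 were the lowest, with a ratio of 2.22 (2.19 to 2.26) between the extremes. These 3 libraries were also the lowest for 20.1% of all measured genes. For mt-Nd1 and mt-Nd2 the adjusted p of the chi-square test was below what double precision can hold, as counts of this size leave little counting noise.

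The share of mt-Nd1 and mt-Nd2 among the 13 mitochondrial genes does not depend on how the libraries were scaled. It was 16.8, 11.6, 16.3, 17.8, 10.98, 17.1, 18.8, 12.1 and 17.7% in libraries 1 to 9. The 3 low libraries were again 2, 5 and 8, and their values did not overlap those of the others. Wilson 95% intervals were narrow, at 12.01 to 12.2% in library 8 and 16.2 to 16.4% in library 3, which flank the gap. The share of mt-Co1 was 33.7, 35.2, 32.4, 32.1, 38.2, 31.7, 30.1, 38.1 and 28.6%, with its 3 highest values in the same libraries. These shares divide a fixed total, so a lower share of mt-Nd1 and mt-Nd2 by itself raises that of mt-Co1. In CPM mt-Co1 was highest in libraries 4 and 1, at 6341 and 6117.

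mt-Nd3 was the mitochondrial gene with the fewest counts and the widest spread. This short subunit, which lies at the junction of the membrane and matrix arms (chrM:9459-9806), stood at 13.9, 10.3, 10.98, 14.9, 11.02, 14.5, 15.4, 5.39 and 19.9 CPM, or 197 to 621 counts. Library 8 was low and library 9 high, a 3.69-fold difference (3.10 to 4.41) with an adjusted p of 1.59e-61 in the chi-square test. Without library 8 the range fell below 2-fold, at 0.95 on the log2 scale.

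The other 4 mitochondrial complex I genes stayed within 2-fold. mt-Nd4, a proton-pumping subunit, stood at 1795, 1372, 1229, 1830, 1472, 1602, 1509, 1183 and 1892 CPM, and mt-Nd5, the most distal pumping subunit, at 1474, 1144, 1071, 1503, 1208, 1264, 1086, 976 and 1388 CPM. Their extremes differed 1.60-fold and 1.54-fold. mt-Nd4l ran from 118 to 191 CPM and shares 7 bases with mt-Nd4 on the same strand. mt-Nd6 is the only protein-coding gene on the minus strand of the mitochondrial genome. It stood at 268, 209, 191, 262, 207, 213, 188, 169 and 295 CPM, a ratio of 1.75 (1.69 to 1.81), and it was among the 9 mitochondrial genes that were lowest in library 8. It overlaps mt-Nd5 by 14 bases on the opposite strand.

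**Figure D4:**
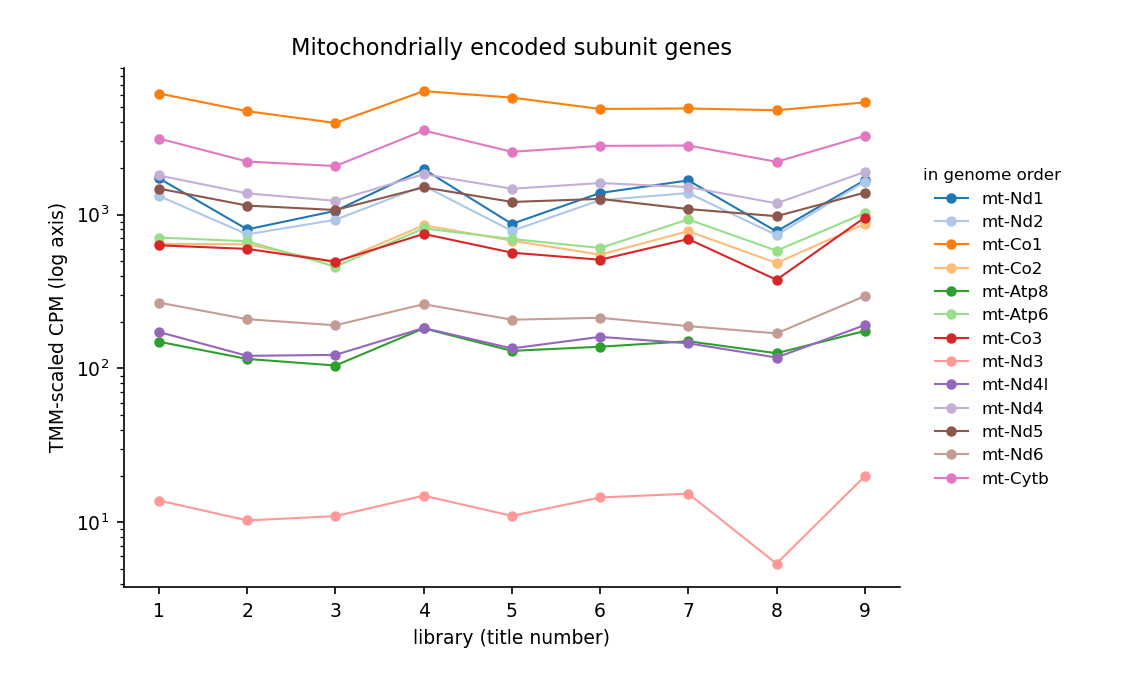
CPM of the 13 mitochondrial genes in each library by title number, on a log axis. mt-Co1 is highest at 3937 to 6341 CPM and mt-Nd3 lowest at 5.39 to 19.9 CPM, and mt-Nd1 and mt-Nd2 dip in libraries 2, 5 and 8.

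In complex III the mitochondrial gene is mt-Cytb, which encodes cytochrome b with its heme groups (chrM:14145-15288). It stood at 3118, 2211, 2067, 3519, 2557, 2795, 2809, 2201 and 3249 CPM, with libraries 4 and 9 high and libraries 2, 3 and 8 low. Its extremes differed 1.70-fold. In complex IV mt-Co1, which carries the site where oxygen is reduced (chrM:5328-6872), was the most abundant member per kilobase at 6117, 4696, 3937, 6341, 5755, 4858, 4890, 4765 and 5354 CPM. Libraries 1 and 4 were the highest and library 3 the lowest, 1.61-fold apart. mt-Co2, which accepts electrons from cytochrome c, stood at 645, 642, 485, 852, 677, 549, 779, 485 and 871 CPM, 1.80-fold apart. mt-Co3, a structural core subunit (chrM:8607-9390), stood at 631, 598, 495, 749, 565, 509, 694, 377 and 956 CPM. Its extremes in libraries 9 and 8 differed 2.54-fold (2.48 to 2.60). Without library 8 or 9 its range fell to 0.95 or 0.99 on the log2 scale.

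The mitochondrial genes of complex V lie side by side on the plus strand and overlap by 43 bases. mt-Atp6, part of the proton channel (chrM:7927-8607), stood at 709, 671, 459, 814, 694, 606, 930, 582 and 1022 CPM, a 2.23-fold difference (2.18 to 2.27) between libraries 9 and 3. Without library 3 its range was 0.81. mt-Atp8 stood at 149, 115, 105, 182, 130, 138, 150, 126 and 175 CPM, 1.74-fold apart. Counts of mitochondrial genes can also include reads of near-identical nuclear copies, and reads in the overlaps were divided between neighbours by the estimation.

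In complex I the nuclear subunits of the matrix arm carry electrons from NADH, and the supernumerary subunits surround the core. The widest range was that of Ndufb9, a supernumerary subunit of the membrane arm (chr15:58933756-58939488), at 67.6, 51.1, 56.5, 57.2, 46.0, 49.6, 47.0, 41.1 and 46.8 CPM. Libraries 1 and 8 were 1.64-fold apart (1.54 to 1.76). Ndufa10, also supernumerary, lay between 61.7 (library 2) and 97.3 CPM (library 9), and Ndufv2, an iron-sulfur subunit of the NADH-oxidizing module, lay between 46.9 (library 8) and 73.2 CPM (library 9). The narrowest was Ndufa8, a supernumerary subunit, at 60.1 to 68.5 CPM with a range of 0.19. The highest level per kilobase was recorded for Ndufb4c, at 28.7 to 36.3 CPM, which is annotated as a processed pseudogene, and how reads were divided between it and Ndufb4 (11.2 to 16.01 CPM) is uncertain. Among the protein-coding genes of the complex Ndufa2, a supernumerary subunit of the matrix arm, was the highest, at 39.2 to 47.0 CPM.

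Among the assembly factors, which help to build complex I without being part of it, Ndufaf4 was the exception already named (ENSMUSG00000028261, chr4:24898083-24905001, plus strand, GRCm38). It stood at 27.8, 15.5, 27.2, 30.3, 14.7, 27.4, 27.6, 15.5 and 29.5 CPM in libraries 1 to 9, from 424 to 1117 counts. Libraries 2, 5 and 8 stood at 14.7 to 15.5 CPM and the other 6 at 27.2 to 30.3 CPM, with no overlap. The extremes differed 2.06-fold (1.83 to 2.32, adjusted p = 1.90e-95 in the chi-square test), just past the threshold, and the range was 0.95 with library totals alone and 0.96 without library 5. Libraries 2, 5 and 8 lay below the other 6 under all 3 scalings used. Such a split was common, being found for 20.1% of all measured genes. The next widest were Ndufaf6 (3.27 to 5.54 CPM, range 0.75) and Ndufaf7, a methyltransferase (9.05 to 14.97 CPM, range 0.72). Ndufaf1 was the narrowest at 12.9 to 15.6 CPM, and Ndufaf8, the highest per kilobase, lay between 6.13 (library 9) and 9.64 CPM (library 2).

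**Figure D5:**
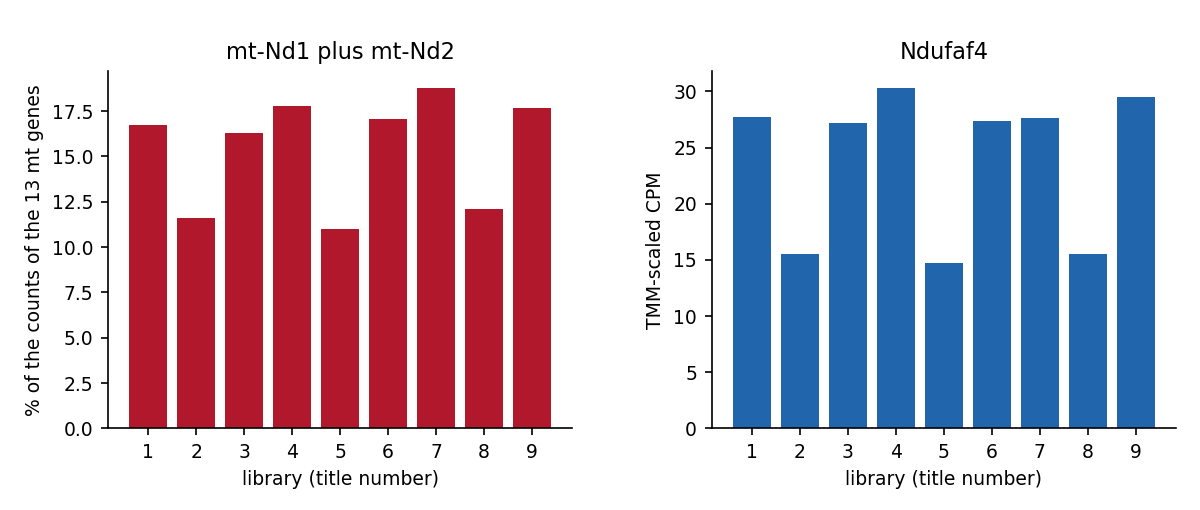
Bars give, for each library by title number, mt-Nd1 plus mt-Nd2 as a percent of the counts of the 13 mitochondrial genes (left) and Ndufaf4 in TMM-scaled CPM (right). The 3 lowest bars of both panels are libraries 2, 5 and 8, at 10.98 to 12.1% on the left and 14.7 to 15.5 CPM on the right.

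The promoters of nuclear respiratory genes are known for sites of the factor NRF1 and of ETS family factors such as GABP, which link them to mitochondrial content. Promoters from RefSeq (GRCm38.p6, 250 bases before to 50 after the start) matched 73 of the 86 measured nuclear members. The NRF1 motif (GCGCA, then any base, then GCGC), searched on both strands, was in the promoters of 19 of the 73 (26.0%), against 12.2% of 9248 measured genes with a promoter. The ETS motif CCGGAAG was in 26.0% against 21.3%, and the E-box CACGTG in 8.22% against 12.02%. A match is only a run of letters, and absence says only that these letters are not in the window. The 250 bases before the start are shown for Ndufaf4, the variable nuclear member, and for Ndufa8, Sdhd and Cox7a2, the narrowest members of complexes I, II and IV, with capitals for matches to any of the 3 motifs.
Ndufaf4, chr4:24897833-24898082, plus strand: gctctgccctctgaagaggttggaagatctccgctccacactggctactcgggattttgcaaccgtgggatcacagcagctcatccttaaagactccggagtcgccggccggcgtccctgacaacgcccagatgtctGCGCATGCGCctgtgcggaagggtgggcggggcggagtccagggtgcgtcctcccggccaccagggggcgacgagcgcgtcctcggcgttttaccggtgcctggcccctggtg
Ndufa8, chr2:36049339-36049588, minus strand: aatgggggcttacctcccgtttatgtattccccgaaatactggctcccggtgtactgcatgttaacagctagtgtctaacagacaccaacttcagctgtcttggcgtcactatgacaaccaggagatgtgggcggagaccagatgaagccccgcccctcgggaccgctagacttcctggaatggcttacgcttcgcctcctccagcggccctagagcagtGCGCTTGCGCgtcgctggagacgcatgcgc
Sdhd, chr9:50603850-50604099, minus strand: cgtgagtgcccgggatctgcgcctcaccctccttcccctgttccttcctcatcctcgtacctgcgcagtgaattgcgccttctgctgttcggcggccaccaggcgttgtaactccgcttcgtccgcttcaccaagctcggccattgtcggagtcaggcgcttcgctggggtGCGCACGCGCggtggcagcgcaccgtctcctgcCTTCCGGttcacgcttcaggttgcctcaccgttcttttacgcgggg
Cox7a2, chr9:79759854-79760103, minus strand: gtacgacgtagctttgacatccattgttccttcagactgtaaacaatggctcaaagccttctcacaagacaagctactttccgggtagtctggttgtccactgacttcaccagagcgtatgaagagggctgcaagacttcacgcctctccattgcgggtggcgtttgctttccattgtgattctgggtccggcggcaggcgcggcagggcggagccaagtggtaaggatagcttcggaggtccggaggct
The NRF1 match begins at base 138 in Ndufaf4, 221 in Ndufa8 and 172 in Sdhd, counted from 1 at the 5′ end. Sdhd also holds an ETS match at base 205. The NRF1 match of Ndufa8 and the ETS match of Sdhd lie on the strand opposite to the one printed. The NRF1 motif was thus present both in the variable gene and in 2 of the 3 narrow ones shown, and Cox7a2 held none of the 3 motifs. Of the narrowest members not shown, Uqcrc1 of complex III had 2 NRF1 matches in the full window. Atp5j2 of complex V and the assembly factor Ndufaf1 had 0.

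Complex II has 4 subunits and no mitochondrial gene. Sdhb, the iron-sulfur subunit, had the widest range and stood at 60.2, 51.3, 63.6, 70.2, 54.6, 71.2, 79.2, 61.4 and 77.5 CPM. Sdha, which holds the flavin and oxidizes succinate, ran from 199 to 253 CPM. The membrane anchors differed in pattern. Sdhc stood at 53.2, 66.2, 56.3, 58.2, 66.5, 57.5, 60.6, 71.0 and 60.0 CPM and was highest in libraries 2, 5 and 8, as were 19.0% of all measured genes. Sdhd, also the highest of the complex per kilobase, stood at 65.1, 64.8, 68.5, 65.0, 68.1, 68.1, 69.0, 65.2 and 69.8 CPM and had the smallest range of any measured member, 0.11, which did not pass the test (adjusted p = 0.0715).

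In complex III the widest range was that of the small subunit Uqcr11 (chr10:80402997-80406830), at 41.9, 47.1, 41.4, 40.3, 41.3, 39.6, 35.0, 37.9 and 25.9 CPM. Library 9 was the lowest and library 2 the highest, 1.82-fold apart (1.64 to 2.01). Uqcrq, another small subunit (chr11:53427922-53430831), stood at 103, 76.9, 111, 122, 75.4, 120, 119, 71.7 and 82.0 CPM, with libraries 2, 5, 8 and 9 low. Uqcrfs1, the Rieske iron-sulfur protein, lay between 41.6 (library 8) and 63.0 CPM (library 9). The core subunit Uqcrc1 was the narrowest at 158 to 186 CPM, and Uqcr10 the highest per kilobase at 37.8 to 45.6 CPM.

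In complex IV the widest range was that of Cox7a2l (chr17:83501918-83517330), a relative of Cox7a2 known for joining complexes III and IV into supercomplexes. It stood at 174, 118, 151, 166, 111, 148, 154, 105 and 136 CPM, 1.66-fold apart at its extremes (1.59 to 1.74). It was lowest in libraries 2, 5 and 8, as were 20.1% of all measured genes. Cox7c lay between 68.4 and 103 CPM and Cox5b between 76.8 and 114 CPM, both highest in library 9. Cox7a2 was the narrowest at 33.5 to 37.1 CPM and did not pass the test (adjusted p = 0.120 over all genes in the chi-square test). Cox8a was the most abundant nuclear member per kilobase, at 142 to 208 CPM.

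Several complex IV subunits have forms that belong to other tissues, and these were near 0 while their usual partners were abundant. Cox4i1 stood at 339, 291, 355, 348, 294, 377, 352, 290 and 355 CPM, whereas Cox4i2, the form of lung and of low oxygen, had 0 to 3 counts a library. Cox6a1 stood at 126 to 159 CPM, and Cox6a2, the heart and muscle form, had 17, 5, 8, 9, 2, 19, 13, 1 and 7 counts, at most 0.592 CPM. Cox7a1, the other heart and muscle form, had 0 or 1 count a library beside Cox7a2. Cox8b, also of heart and muscle, and the testis forms Cox7b2 and Cox8c had 0 counts in all 9 libraries, where a count of 0 allows up to 0.0742 CPM in the deepest and 0.164 CPM in the shallowest, beside Cox8a and Cox7b (51.5 to 62.4 CPM). Cox6b2, the testis form, had 0 to 3 counts beside Cox6b1 (40.2 to 46.2 CPM). Ndufa4, counted here with complex IV, stood at 54.1 to 66.2 CPM and its hypoxia-linked relative Ndufa4l2 had 0 to 9 counts. The remaining unmeasured members were Ndufa11b, Ndufs6b and Cox6c2, with 0 to 2 counts a library, and a further row named Atp5o with 0 counts.

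In complex V the widest range was that of Atp5l, subunit g of the membrane part (chr9:44912557-44920742), at 45.7, 59.7, 56.1, 41.7, 52.7, 52.6, 32.9, 47.3 and 43.0 CPM. Library 7 was the lowest and library 2 the highest, 1.81-fold apart (1.69 to 1.94). Atp5b, the catalytic beta subunit and the highest of its complex per kilobase, stood at 903, 727, 893, 969, 782, 996, 1080, 881 and 1131 CPM, 1.56-fold apart. Atp5g1, 1 of 3 genes for the ring subunit c, lay between 35.1 (library 2) and 54.3 CPM (library 7). Atp5a1, the alpha subunit that pairs with Atp5b, stood at 419, 481, 417, 414, 494, 438, 441, 533 and 467 CPM. Libraries 2, 5 and 8 were the 3 highest for Atp5a1 (as for 19.0% of all measured genes) and the 3 lowest for Atp5b (as for 20.1%). Atp5j2 was the narrowest at 71.2 to 77.1 CPM, with an adjusted p of 0.0841 in the chi-square test.

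By position of the title number, libraries 2, 5 and 8 stood apart from the rest more often than other trios, among members and among all genes alike. They lay below all 6 others for 21 of 86 nuclear members (24.4%), against 20.1% of all measured genes. These were 11 subunits of complex I (Ndufa10, Ndufa12, Ndufab1, Ndufb5, Ndufb10, Ndufs1, Ndufs3, Ndufs7, Ndufs8, Ndufv1 and Ndufv2), Ndufaf4, Uqcrfs1 and Uqcrq of complex III, Cox4i1, Cox5a, Cox7a2l, Cox7c and Cox8a of complex IV, and Atp5b and Atp5pb of complex V. They lay above the others for 4 (4.65%, Atp5a1, Atp5e, Ndufv3 and Sdhc), against 19.0% of all genes. With library totals alone 12 members lay below and 13 above, where 15.3% and 23.5% of all genes did, and with RLE size factors 18 and 7, where 18.73% and 20.2% did. The direction counts of members and of all genes thus both moved with the scaling, and totals alone raised the median of all genes by 0.042 to 0.053 on the log2 scale in these 3 libraries. Among the mitochondrial members only mt-Nd1 and mt-Nd2, 2 of 13, lay below, and 0 lay above.

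The other trios separated few members. Libraries 1 to 3 were all below the rest for 3 nuclear members (Cox6a1, Cox6b1 and Ndufa9, where 2.71% of all genes were) and all above for Uqcr11 (3.92%). Libraries 4 to 6 were outside the others for 0 members in either direction (0.0312% and 0.0390% of all genes). Libraries 7 to 9 were below for 2 and above for 4 (4.10% and 3.28%). Libraries 1, 4 and 7 were below for 1 and above for 4 (4.39% and 6.34%), and libraries 3, 6 and 9 for 2 and 3 (3.46% and 5.15%). No mitochondrial member was outside in any of these. The mitochondrial score ran from -0.33 to 0.16 in libraries 1 to 3, from -0.08 to 0.32 in 4 to 6 and from -0.34 to 0.39 in 7 to 9, so the blocks overlapped.

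Genes of cell division and of ribosome biogenesis had their extremes in the same libraries. A division list had scores of -1.68, 0.85, -2.15, -0.88, 1.45, -1.41, 0.19, 1.98 and 0 in libraries 1 to 9, highest in libraries 2, 5 and 8, and 12 of its 12 genes were variable, the widest being Ccnb2 (0.481 to 26.0 CPM) and Nuf2 (0.340 to 16.1 CPM). A ribosome biogenesis list had scores of 0.10, -0.79, -0.12, 0.29, -0.65, 0, 0.44, -0.28 and 0.30, lowest in the same libraries, with 10 of 12 variable and Rrp12 (20.2 to 57.0 CPM) and Nop56 (90.0 to 248 CPM) the widest. Over all measured genes 28.0% were variable. The nuclear oxidative phosphorylation score spanned 0.11 and was below 0 in these 3 libraries and in library 1. Library 1 (-0.048) was as low as library 2 (-0.049) and lower than library 8 (-0.028). With RLE size factors or library totals alone, library 1 was the lowest of all. With TMM scaling the nuclear complex I score was lowest in libraries 2, 5 and 8 (-0.039, -0.088 and -0.042), with library 1 next at -0.030. RLE size factors moved the median of all genes by -0.016 in library 1 and by 0.017 in library 8. Both shifts exceed the gaps between the complex I scores of libraries 1, 2 and 8, so their order is not secure. The nuclear scores of complexes II to V did not set these 3 libraries below all others. The part of either list in the levels of mt-Nd1, mt-Nd2 and Ndufaf4 was not tested.

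The 11 lists around the complexes cover assembly factors, electron carriers, expression of mitochondrial DNA, regulators, the TCA cycle, import and inhibitors. Of their 136 measured genes 14 were variable (10.3%), with a median range of 0.53. Over all measured genes 28.0% were variable with a median range of 0.69, and between 10 and 1000 CPM 15.9% with 0.56. In these lists 0 of 8 further complex I assembly factors and 0 of 6 for complex III were variable. Sdhaf3, an assembly factor of complex II, ran from 2.39 to 4.92 CPM, and the next widest of its list, Sdhaf4, stayed within 2-fold at 4.38 to 7.67 CPM. For complex IV, Coa7 ran from 10.77 to 24.7 CPM and Cox16, which helps to mature mt-Co2, from 10.9 to 22.5. The high value of Cox16 was that of library 9 alone, the shallowest, and the other libraries lay at 10.9 to 13.7 CPM. Atp23, a protease that acts in complex V assembly in yeast, ran from 2.60 to 5.42 CPM, and Atpaf1, a chaperone of the catalytic part, was not variable at 16.5 to 23.6 CPM. Among electron carriers Coq8a and Pdss1, both of ubiquinone synthesis, were variable at 1.85 to 3.78 and 1.70 to 4.30 CPM.

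Of 28 genes that copy, transcribe or process mitochondrial DNA and its RNA, 2 were variable, where 28.0% of all measured genes were. Trmt10c, a subunit of the enzyme that cuts and methylates mitochondrial tRNAs and so frees the RNAs between them, stood at 34.7, 20.8, 33.1, 38.7, 22.3, 38.0, 42.0, 22.0 and 51.5 CPM. Libraries 2, 5 and 8 were the lowest, as they were for mt-Nd1 and mt-Nd2, and its part in their levels was not tested. Fastkd5, a mitochondrial RNA-processing factor, ran from 9.84 to 20.1 CPM. Tfam, which packages mitochondrial DNA, ran from 36.8 to 46.5 CPM and Polrmt, the mitochondrial RNA polymerase, from 34.8 to 52.9, and neither was variable. Libraries 2, 5 and 8 were again the lowest for both, as for 20.1% of all measured genes. The score of the list of 28 genes was -0.18, -0.15 and -0.10 in these libraries and 0 or higher in the others.

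Among nuclear regulators the coactivator Ppargc1a stood at 8.46, 6.94, 8.12, 5.41, 4.89, 5.80, 3.14, 2.24 and 4.59 CPM, highest in libraries 1 to 3, and Ppargc1b ran from 3.31 to 7.27 CPM. Nrf1 ran from 27.9 to 40.1 CPM, lowest in libraries 2, 5 and 8, and was not variable. These 3 libraries were also the lowest for 20.1% of all measured genes. In the pyruvate dehydrogenase and TCA list only Dld, the shared dehydrogenase subunit, was variable, with 143 CPM at its lowest (library 2) and 341 CPM at its highest (library 9), and Pdhb, a subunit of pyruvate dehydrogenase, came next at 76.5 to 148 CPM. Among import and carrier genes the chaperone Hspa9 stood at 579, 597 and 655 CPM in libraries 2, 5 and 8 and at 1208 to 1431 in the others, and Timm50, of the import channel, ran from 18.6 to 40.5 CPM. Pdk1, the kinase that inhibits pyruvate dehydrogenase, had 24.96 CPM in library 3 and 53.7 in library 8 as its extremes, and the related kinase Pdk4 stayed within 2-fold at 1.81 to 3.17 CPM.

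Library totals ran from 18732737 counts in library 9 to 41243036 in library 7. Of 11 leukocyte and NK cell markers all were under 1 CPM and 5 were at 0, with a sum of 0.0495 to 0.243 CPM. Endothelial markers summed to 1.42 to 4.65 CPM with Cdh5 at 0 and Vwf, the only one measured in every library, at 1.11 to 4.25 CPM. The striated muscle list summed to 20.8 to 47.5 CPM, most of it Myh6 (13.7 to 38.0 CPM), with Myh2 at 0, Tnnt2 at 0.711 to 9.35 CPM and Myh7 at 1.92 to 5.43 CPM. The epithelial label was carried mostly by Krt8 (146 to 662 CPM) and Krt18 (38.0 to 156 CPM). Cdh1 lay at 5.46 to 13.03 CPM and Krt7 at 1.41 to 4.85 CPM, whereas Epcam reached at most 0.219 CPM and 6 of 10 epithelial markers were under 1 CPM. The mesenchymal markers Vim (3495 to 5849 CPM) and Fn1 (9501 to 14672 CPM) were abundant, and the widest of that list were Zeb1 (0.328 to 3.90 CPM) and Col1a1 (1100 to 4224 CPM). Zeb2 lay at 214 to 264, Snai2 at 91.8 to 152 and Twist1 at 44.2 to 122 CPM, whereas Cdh2 reached at most 0.816 CPM.

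Several members share their position with a gene on the opposite strand, and the sources used here do not state whether counting used strand. Partners with more counts than the member were found for Ndufs1 (Eef1b2), Ndufb2 (Braf), Ndufb11 (Rbm10), Ndufa3 (Tfpt), Ndufaf2 (Smim15), Ndufaf3 (Impdh2) and Cox6c (Vps13b). The same held for mt-Nd6 (mt-Nd5, with 14 annotated bases shared), so the levels of all these members are less certain. If counting ignored strand, plus-strand RNA lying over mt-Nd6 beyond those bases could also be counted for it.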

How the data were processed

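RNA from 9 samples was isolated with an RNeasy kit and made into poly(A) libraries by a sequencing core, per the labels' protocols. The authors deposited RSEM expected counts per gene, as whole numbers without normalization, per the file header and the submitters' processing notes. Those notes list the build GRCm38 and RSEM 1.3.3, STAR 2.7.8a, cutadapt 2.3, FastQC 0.11.8 and MultiQC 2.7. The sources used here do not state the annotation release or strand setting. RSEM shares ambiguous reads among the genes they match, which makes near copies less certain. The table has 55492 rows, of which 5 reporter rows hold 0 counts and were left out. No 2 libraries were alike within counting noise (smallest chi-square per gene 16.7).

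Counts were scaled by TMM in edgeR 4.0.16 (R 4.3.3), and log2 CPM used a prior count of 2, which slightly narrows low genes. Its filter on low counts (10 counts at the median library size, 15 in total), run without groups, kept 12813 genes. A chi-square test of dispersion with Benjamini-Hochberg adjustment over all of them, and a range of at least 1 on the log2 scale, defined variable genes. With no groups there was no coefficient for a quasi-likelihood test. Scripts were tested on simulated data. Where nothing says that samples came from separate cultures, the spread may be technical. Ratios of extremes have conditional binomial 95% intervals and shares Wilson intervals, and a count of 3 set the floor. All of them cover counting error only, since reads carry no molecular identifiers here, and they do not allow for the choice of extremes. Coordinates come from GENCODE M21 (GRCm38), where all 111 members were found by identifier.

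The genes named are the 13 mitochondrial members, the variable nuclear members, in each complex the 3 of widest and the 1 of narrowest range and the highest per exon length (Ndufa2 was added after its values were seen), the tissue forms with their partners, and the widest 2 of each other list that held a variable gene. Other members named by their position counts, Tfam, Polrmt, Nrf1 and Atp5a1 were chosen after their values were seen. Members and lists were chosen with earlier results of these data known. Alternatives were RLE factors, library totals, no filter on low counts, other thresholds, means in place of medians and leaving out each library.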

Additional observations from a re-analysis of the deposited data

How the results depend on the processing

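No paired analysis was possible because the labels tie no library to a group. Leaving out each library in turn, 0 to 1 nuclear and 3 to 5 mitochondrial members were variable (0 without library 5, 3 without library 8). Nuclear variable members numbered 0 with library totals alone, 3 without the filter (Cox6a2 and Ndufa4l2 joined Ndufaf4, at 19 counts or fewer a library, where 23.7% of all genes were variable) and 23 with 1.5-fold in place of 2-fold (56.7% of all genes), when all 13 mitochondrial members were variable. The nuclear score's range of 0.11 was 0.081 with totals alone, 0.13 with means and 0.089 to 0.13 without a library. The mitochondrial range of 0.74 was 0.69 with totals alone, 0.85 with means and 0.68 to 0.77 without a library, and the difference of scores was 0.75 with means and 0.61 to 0.72 without a library. Complex ranges with totals alone were 0.082 for I and 0.16 for V. Without a library they were 0.11 to 0.16 for I, 0.15 to 0.22 for its assembly factors, 0.10 to 0.23 for II, 0.06 to 0.10 for III, 0.12 to 0.21 for IV and 0.10 to 0.16 for V. With totals alone 12 nuclear members lay below and 13 above in libraries 2, 5 and 8, and 7 lay above with RLE factors. Of 444 values for 37 named genes under alternatives, 438 kept the call and 6 lost it: Ndufaf4 with totals alone and without library 5, mt-Atp6 without library 3, mt-Co3 without library 8 or 9, and mt-Nd3 without library 8. The cause was not tested. Scaling moved the median of all genes by at most 0.053 on the log2 scale. Depth limits the low members, since 1 CPM is 18.3 counts in library 9.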

Other observations

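Of 14 rows left out for a -ps suffix, 4 had 0 counts in every library and 3 were measured: Ndufb1-ps at 9.62 to 13.05 CPM, Ndufa12-ps at 3.15 to 5.47 CPM and Atp5pb-ps at 0.936 to 1.59 CPM. 0 of these 3 were variable. Their ranges were 0.44, 0.78 and 0.72 on the log2 scale.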
